A study of Mus musculus with 6 samples.

Results

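The genes described here are 4 genes of the mitochondrial genome, mt-Co1, mt-Co2, mt-Co3 and mt-Atp6, and 6 nuclear pseudogenes, Gm29216, Gm28661, Gm28437, Gm10925, Gm10222 and Gm28439. They are the rows with these 10 names in a table of 21686 genes. The pseudogenes were chosen by their high read counts in these libraries, so their levels are given as a description. The differences between groups were tested in a fit of the whole table, on the same counts. These tests are not independent of the choice, which may favour pseudogenes that are high in only some of the groups. RNA was sequenced from MC3T3-E1 Subclone 14 cells, a mouse line of osteoblast precursors that is 1 clone. The control group received PBS, the dexamethasone group 10 µM of this synthetic glucocorticoid, and the dexamethasone + EPC-EVs group the same dose with 100 µg of extracellular vesicles from endothelial progenitor cells (EPC-EVs). Each of the 3 groups had 2 libraries, no group received vesicles alone, and all cells were treated for 72 hours by the sample labels. The design text of the series gives another time and calls the cells fibroblasts, and a passage of the paper gives a lower vesicle dose for this group. The sample labels were followed. The study calls the libraries of a group biological replicates, and neither it nor the labels say whether they came from separately treated cultures, so the p-values measure the spread between these libraries, which may be technical.

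Cytochrome c oxidase, or complex IV, is the last complex of the respiratory chain and passes electrons to oxygen. Its catalytic core is made of COX1, COX2 and COX3, the products of mt-Co1, mt-Co2 and mt-Co3, while its other subunits are made from nuclear genes, and mt-Atp6 encodes the part of ATP synthase through which protons flow. Stretches of mitochondrial DNA have been copied into the nuclear genome many times, and such copies, called NUMTs, are mostly taken to be non-functional.

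The 6 pseudogenes lie head to tail on the minus strand of chromosome 1, between bases 24611535 and 24616197 of GRCm38, in the GENCODE vM21 annotation. They share this span of 4663 bases with a pseudogene that was not chosen, Gm28438, and all 7 are annotated as unprocessed pseudogenes. Each was paired with the mitochondrial gene that matched its transcript best. Gm28661 matched mt-Co2 in 681 of 681 bases, Gm28437 matched mt-Co3 in 783 of 783, and Gm10925 matched mt-Atp6 in 678 of 678. Gm10222 matched mt-Nd4l in 294 of 294 bases, and Gm28439 matched the first 876 of the 1378 bases of mt-Nd4 without a difference. Gm29216 matched the last 483 bases of mt-Co1 in 482, with the substitution A1066T, where the base of mt-Co1 stands first and positions are counted from 1 at the start of its transcript. This match begins at base 10 of Gm29216, and of the 9 bases before it 5 differ from mt-Co1. The pseudogenes stand in the order of their counterparts, and together their matches run from base 6390 to base 11042 of the mitochondrial genome. The sequence between the pseudogenes was not compared, so this stretch of 4653 bases, called the copied stretch here, is the span from the first to the last matched base. It holds 6 of the 13 protein-coding mitochondrial genes whole, namely mt-Co2, mt-Atp8, mt-Atp6, mt-Co3, mt-Nd3 and mt-Nd4l, although only 43 of the 204 bases of mt-Atp8 lay within a match. It holds 31.3% of the length of mt-Co1 and 63.6% of that of mt-Nd4, and the other 5 genes lie outside it.

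The sequences below, from the GENCODE vM21 transcripts and written 5′ to 3′, are shown because the counts of each pair rest on telling them apart. The first 45 bases of Gm29216 are set against bases 1054 to 1098 of mt-Co1, with the differing bases in capitals, namely the 5 before the match and the substitution within it. The first 45 bases of the other pairs are the same in both genes, and there the capitals mark the start codon.
Gm29216: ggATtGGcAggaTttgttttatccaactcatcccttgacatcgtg
mt-Co1: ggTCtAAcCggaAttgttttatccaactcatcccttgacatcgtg
Gm28661 and mt-Co2: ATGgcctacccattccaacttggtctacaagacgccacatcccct
Gm28437 and mt-Co3: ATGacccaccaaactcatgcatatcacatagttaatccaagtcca
Gm10925 and mt-Atp6: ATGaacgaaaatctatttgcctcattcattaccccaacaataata
Gm28439 and mt-Nd4: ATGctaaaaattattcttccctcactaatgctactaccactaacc
A read that lies wholly within such an identical stretch cannot be assigned to one copy by its sequence. How the authors' counting treated reads with more than 1 match is not given in the sources used here, so the split between a pseudogene and its counterpart is uncertain in every library.

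The depth ranged from 5146760 to 6583735 counts in the 4 libraries without vesicles, and was 12864009 and 13182014 counts in those with vesicles. The 13 mitochondrial genes took 7.46% and 8.62% of the counts in control, 5.55% and 5.78% in dexamethasone, and 0.465% and 0.727% in dexamethasone + EPC-EVs. The 6 pseudogenes together took 0.336% and 0.448%, 0.256% and 0.237%, and 0.0230% and 0.0353%. The gene with the most counts was mt-Co1 in the 4 libraries without vesicles, whereas it ranked 12 and 9 in those with vesicles. There the first gene was Gm26917, named after its values were seen, with 5.88% and 6.69% of the counts. Of the osteoblast markers, Runx2, Col1a1, Col1a2, Sparc and Spp1 had at least 904 counts in every library, whereas Alpl had 0 to 17, Bglap 0 to 83, Ibsp 2 to 26 and Sp7 6 to 260 counts. Of 11 endothelial markers, the vesicles' cell type of origin, 8 were in the table. Their summed level was 482 to 541 CPM in control, 484 to 488 CPM in dexamethasone and 326 to 405 CPM in dexamethasone + EPC-EVs, nearly all from Cd34 and Flt1. The defining endothelial marker Cdh5 had at most 1 count and Pecam1 at most 21. The leukocyte markers, of which 4 of 7 were in the table, summed to between 11.8 and 19.0 CPM in 5 libraries and to 53.3 CPM in the second vesicle library. There Csf1r, named after its values were seen, had 471 counts, against 56 in the first vesicle library and 0 to 20 in those without vesicles. In the vesicle group Col1a1, Col1a2 and Sparc rose and Spp1 fell against both other groups (edgeR adjusted p of 0.00575 or less), and the part of such shifts in the results below was not tested. As the libraries are bulk RNA, fewer cells with a transcript and less of it per cell cannot be told apart.

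The mitochondrial members differed strongly in level. On the FPKM scale, which divides the counts by gene length and library total, mt-Co1 stood at 18830 and 24108 in control, 18111 and 19594 in dexamethasone, and 2313 and 3303 in dexamethasone + EPC-EVs. The level of mt-Co2, the subunit that takes up electrons from cytochrome c, was 112 and 120 FPKM in control, 88.8 and 47.6 in dexamethasone, and 19.8 and 10.4 in dexamethasone + EPC-EVs. The level of mt-Co3 was 35.6 and 29.0 FPKM in control, 28.9 and 33.8 in dexamethasone, and 11.0 and 8.71 in dexamethasone + EPC-EVs. In each library mt-Co1 thus stood far above the genes of the subunits it works beside. For mt-Atp6 the levels were 103 and 112 FPKM in control, 54.6 and 58.3 in dexamethasone, and 2.28 and 3.90 in dexamethasone + EPC-EVs.

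The levels of the mitochondrial genes followed their place relative to the copied stretch. In the control libraries the 5 genes outside it (mt-Nd1, mt-Nd2, mt-Nd5, mt-Nd6 and mt-Cytb) ranged from 2332 to 13079 FPKM, and the 2 genes partly inside it (mt-Co1 and mt-Nd4) from 4673 to 24108. The 6 genes wholly inside it ranged from 0 to 120 FPKM. These ranges did not overlap between the wholly copied genes and the others, and the same held in dexamethasone, with 1397 to 8256 outside, 2808 to 19594 partly inside and 0 to 88.8 wholly inside. In dexamethasone + EPC-EVs they were 23.96 to 728 FPKM outside, 146 to 3303 partly inside and 0 to 19.8 wholly inside. The lowest values were those of mt-Atp8, with 5 to 9 counts in the libraries without vesicles and 0 in both with vesicles, and of mt-Nd3, with 0 to 10 counts. Whether the place in the copied stretch had a part in these levels was not tested. The ribosomal RNA genes of the mitochondrion were not in the table.

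**Figure D1:**
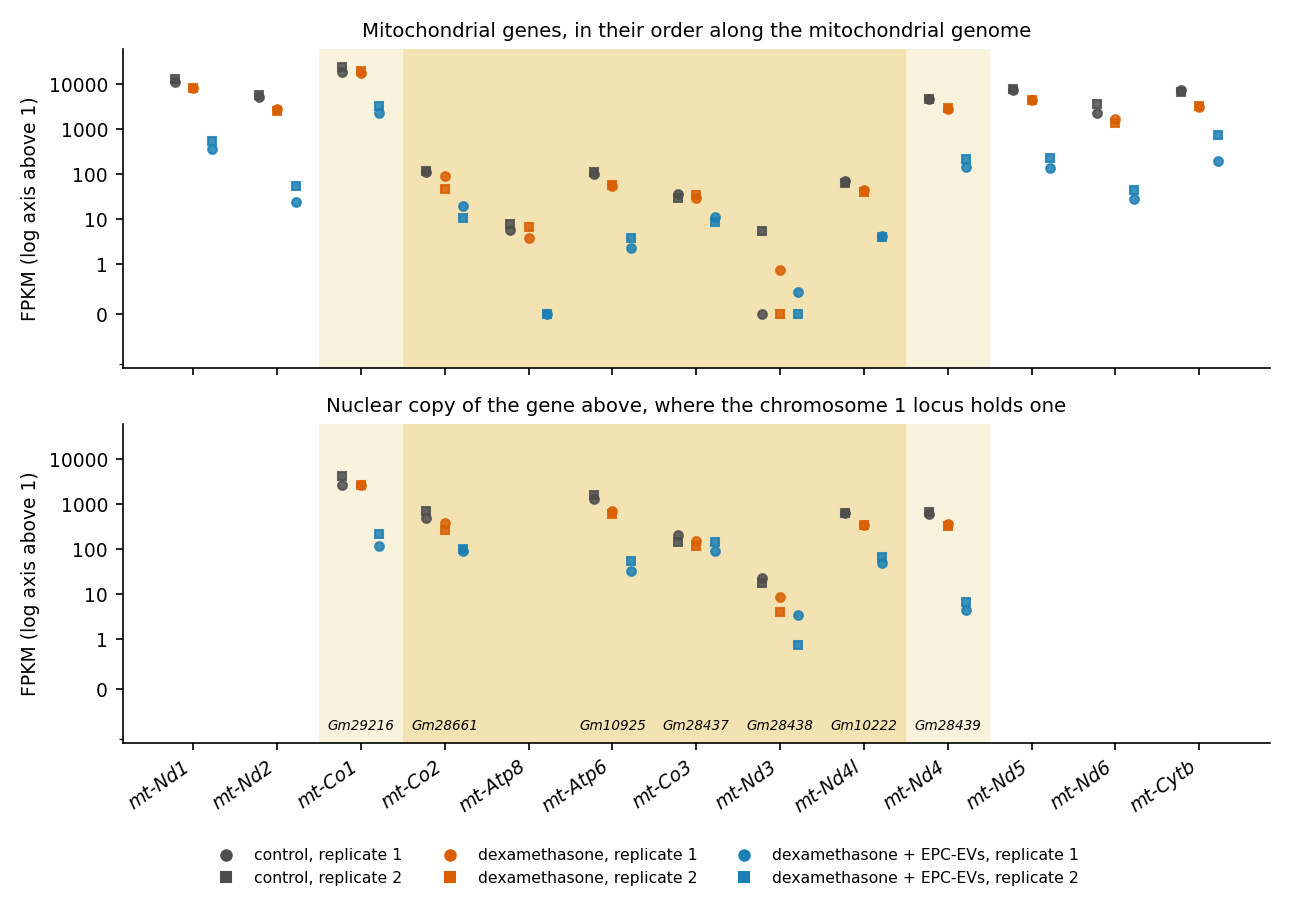
Levels (FPKM, logarithmic above 1) of the 13 mitochondrial genes in their order along the mitochondrial genome (top) and of the 7 pseudogenes of the chromosome 1 locus under their counterparts (bottom); each point is a library, dark shading marks genes wholly and light shading genes partly inside the copied stretch. In the control libraries the wholly copied genes sit at 0 to 120 FPKM and the others at 2332 or more, while the pseudogene members lie between 145 and 4177 FPKM.

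Among the pseudogenes, Gm29216 had the highest mean level in control (3408 FPKM) and in dexamethasone (2623 FPKM), and Gm28437 the lowest (175 and 133 FPKM). Gm10925 came next after Gm29216, with a mean of 1415 FPKM in control and 664 in dexamethasone. Gm28439, Gm10222 and Gm28661 had mean levels of 644, 636 and 584 FPKM in control, and their libraries overlapped, so these neighbours did not differ beyond their spread. In dexamethasone + EPC-EVs the order was another. Gm29216 was at 114 and 219 FPKM, Gm28437 at 91.9 and 144, and Gm28661 at 89.3 and 103, so that neighbours in this order overlapped. Gm10222 was at 49.97 and 65.8 FPKM, Gm10925 at 32.4 and 55.0, and Gm28439 last at 4.53 and 6.58, below all others. The pseudogene of the locus that was not chosen, Gm28438, had 4 to 47 counts a library, whereas the fewest counts of a chosen pseudogene were 51, for Gm28439.

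The pairs fell into 2 kinds by how their counts were split. For the pairs whose mitochondrial gene is copied whole, most counts lay on the pseudogene. Of the summed counts of Gm10925 and mt-Atp6, the pseudogene held 92.5% and 93.3% in control, 92.9% and 91.2% in dexamethasone, and 93.4% and 93.4% in dexamethasone + EPC-EVs. Gm10222 held 88.2% to 94.1% of its counts shared with mt-Nd4l over the 6 libraries. The share of Gm10925 stayed between 91.2% and 93.4%, although the summed counts of Gm10925 and mt-Atp6 went from 5696 and 5844 in control to 303 and 527 with vesicles. A share this high moves little even when the ratio of the genes changes. Counts of Gm10222 per count of mt-Nd4l averaged 13.9 with vesicles, against 8.09 under dexamethasone alone and 9.34 in the control libraries. For Gm10925 per count of mt-Atp6 these means were 14.1, 11.8 and 13.1. Each vesicle library had only 16 counts of mt-Nd4l, and the ratios were not tested. Gm28661 held 81.0% and 85.1% of the counts shared with mt-Co2 in control, 81.2% and 84.6% in dexamethasone, and 81.8% and 90.7% in dexamethasone + EPC-EVs. Gm28437 held 85.2% and 83.4% of those shared with mt-Co3 in control, 83.7% and 77.7% in dexamethasone, and 89.3% and 94.3% in dexamethasone + EPC-EVs. The last values lay above all others of that pair.

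For the pairs whose mitochondrial gene is copied in part, few counts lay on the pseudogene. Gm28439 held 7.67% and 8.25% of the counts shared with mt-Nd4 in control, 7.41% and 6.57% in dexamethasone, and 1.93% and 1.88% in dexamethasone + EPC-EVs. Gm29216 held 4.27% and 5.23% of those shared with mt-Co1 in control, 4.37% and 4.12% in dexamethasone, and 1.55% and 2.07% in dexamethasone + EPC-EVs. In both pairs the libraries with vesicles had the lowest shares, and their exact 95% binomial intervals (1.44% to 2.53% and 1.48% to 2.35% for Gm28439, 1.44% to 1.67% and 1.96% to 2.18% for Gm29216) did not reach those of the other libraries, which began at 6.29% and 4.04%. The intervals cover counting error only. These 2 pseudogenes are shorter than their counterparts, and with FPKM in place of counts the mean share of Gm28439 was 11.98%, 10.6% and 2.96% in control, dexamethasone and dexamethasone + EPC-EVs, and that of Gm29216 was 13.5%, 12.2% and 5.46%. The differences in shares were not tested.

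**Figure D2:**
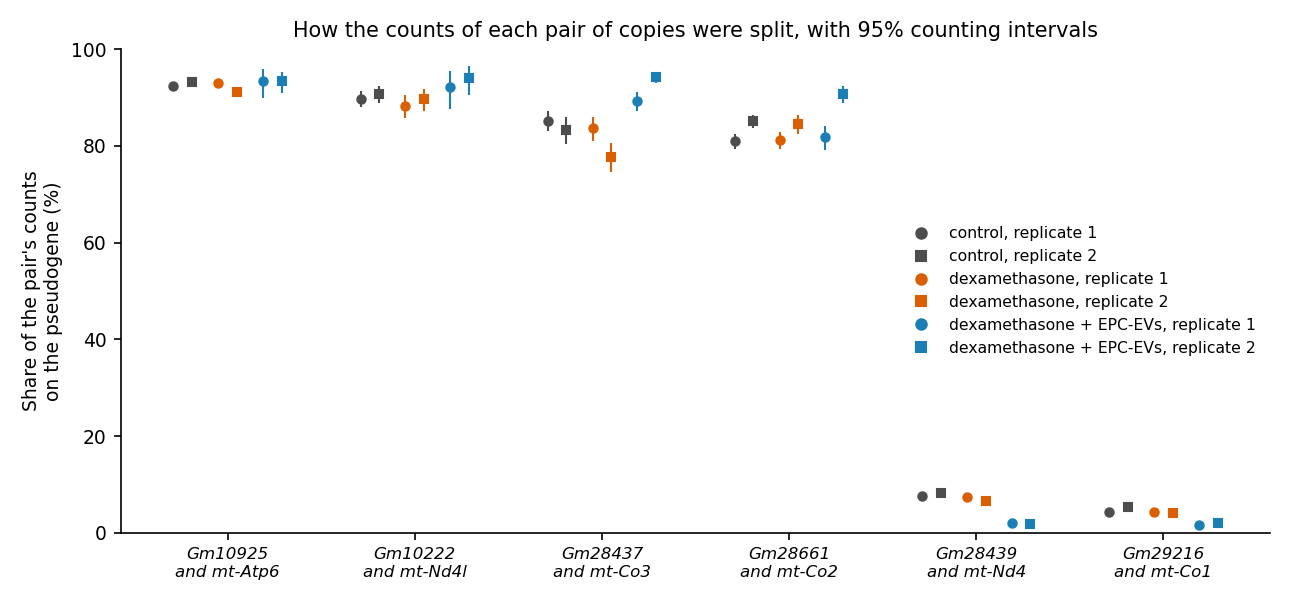
Share (%) of the summed counts of each pseudogene and its mitochondrial counterpart that lay on the pseudogene, one point per library with its exact 95% binomial interval. The 4 pairs with a wholly copied mitochondrial gene sit between 77.7% and 94.3%, and the 2 pairs with a partly copied one between 1.55% and 8.25%, lowest in the libraries with vesicles.

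Dexamethasone against control asked what the glucocorticoid alone did. All 10 members had a negative log2 fold change, as had 49.4% of all genes, but Gm10925 was the only one that passed the test of edgeR's quasi-likelihood fit with Benjamini-Hochberg adjustment. Over all 12879 genes tested, 7 were called in either direction, which is 0.0544%, and 0.0388% were called lower. In 8 of the 10 members both dexamethasone libraries lay below both control libraries, which was so for 21.3% of all genes, and 8 members had an unadjusted p under 0.05 with a lower mean, against 5.33% of all genes. The median log2 fold change was −0.89 over the members and 0.007 over all genes tested. The members are not independent in this count, since the pairs share sequence.

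In CPM, the counts scaled to the library totals after TMM normalization, Gm10925, the copy of mt-Atp6, was at 867 and 1094 in control and at 474 and 401 in dexamethasone. Its log2 fold change was −1.17 (SE 0.164, adjusted p = 0.0414 by edgeR). Without the second dexamethasone library its adjusted p was 0.160. mt-Atp6 itself was at 70.5 and 78.8 CPM in control and 36.2 and 38.5 CPM in dexamethasone, a log2 fold change of −1.004 (SE 0.218) with an edgeR adjusted p of 0.229. The groups did not overlap in either gene, and the log2 fold change of the pseudogene was close to that of its counterpart.

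Gm28439, the copy of part of mt-Nd4, was at 539 and 612 CPM in control and 301 and 280 CPM in dexamethasone (log2 fold change −0.99, SE 0.148, edgeR adjusted p = 0.0510). Gm10222, the copy of mt-Nd4l, was at 185 and 197 CPM in control and 97.4 and 98.6 CPM in dexamethasone (log2 fold change −0.97, SE 0.164, edgeR adjusted p = 0.101). Neither passed the threshold, although the groups did not overlap in either gene. Gm28661 was at 329 and 485 CPM in control and 255 and 173 CPM in dexamethasone (log2 fold change −0.93, edgeR adjusted p = 0.279). Its counterpart mt-Co2 was at 77.0 and 84.7 CPM in control and 59.0 and 31.6 CPM in dexamethasone (log2 fold change −0.84, edgeR adjusted p = 0.351). The 2 dexamethasone libraries of this pair lay apart from each other in both genes.

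The members of the other oxidase pairs differed least. Gm29216 was at 1310 and 2122 CPM in control and 1244 and 1263 CPM in dexamethasone (log2 fold change −0.46, edgeR adjusted p = 0.441). mt-Co1 was at 29344 and 38459 CPM in control and 27183 and 29378 CPM in dexamethasone, so that the groups overlapped (log2 fold change −0.27, SE 0.146, edgeR adjusted p = 0.528). The spread between the control libraries of this pair was wider than that between the groups. mt-Co3 was at 28.2 and 23.5 CPM in control and 21.99 and 25.7 CPM in dexamethasone and also overlapped (log2 fold change −0.12, edgeR adjusted p = 0.919). Gm28437 was at 162 and 118 CPM in control and 113 and 89.4 CPM in dexamethasone (log2 fold change −0.47, edgeR adjusted p = 0.441). The number of members called in this comparison depended on single libraries. It was higher without either control library, unchanged without the first dexamethasone library and lower without the second. The number of all genes called moved with single libraries as well.

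**Figure D3:**
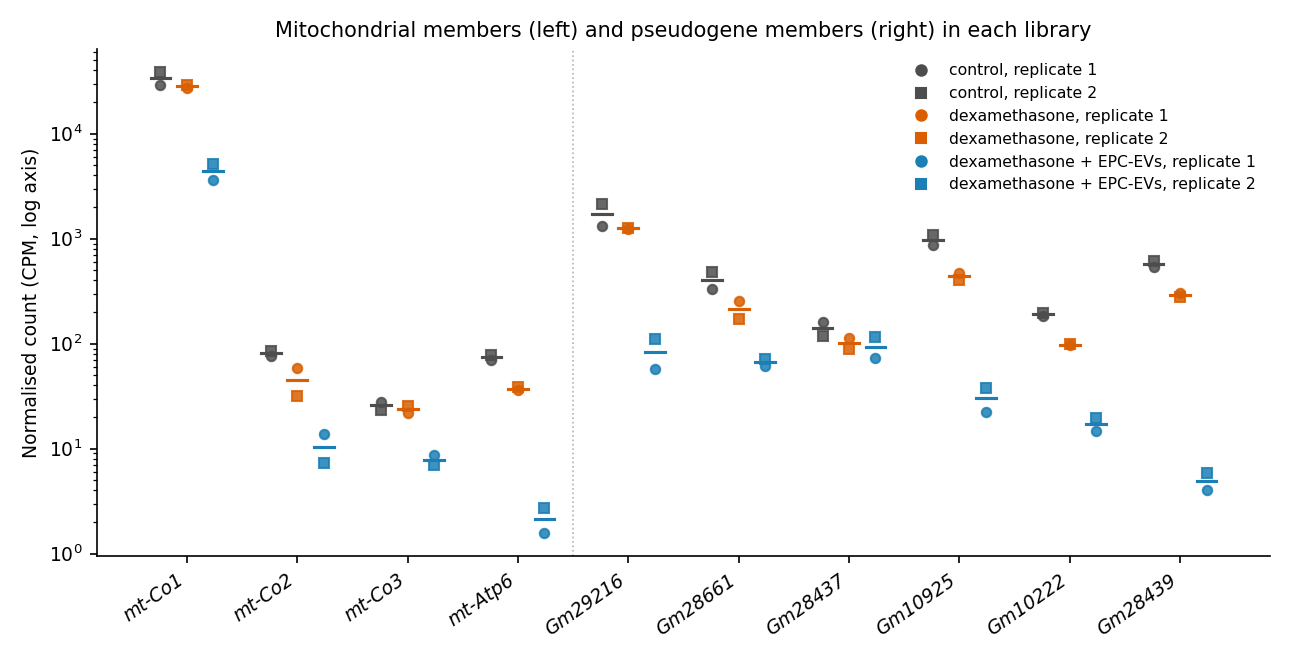
Normalised count (CPM, logarithmic axis) of each member in each library, with the mean of each group as a bar; the mitochondrial members are left of the dotted line and the pseudogenes right of it. All members but Gm28437 have their lowest values in the 2 libraries with vesicles, whose control, dexamethasone and vesicle libraries overlap or nearly meet.

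Dexamethasone + EPC-EVs against dexamethasone asked what the vesicles changed in cells under the glucocorticoid. Of the 10 members, 9 fell and Gm28437 did not pass the test. Over all 13556 genes tested, 18.9% were called lower and 39.8% were called in either direction. In the same 9 members the libraries with vesicles lay below those without, which was so for 35.2% of all genes. The median log2 fold change was −2.61 over the members and 0.012 over all genes. The members are not independent in these counts either, and the pseudogenes among them were chosen by counts of these same libraries. The libraries with vesicles had the higher total counts and Gm26917 as their first gene, and the part of either in these differences was not tested. With library totals, upper-quartile scaling, or scaling without the mitochondrial genes and pseudogenes, 9 members were called as well.

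Among the oxidase genes, mt-Co1 was at 3617 and 5197 CPM in dexamethasone + EPC-EVs, against 27183 and 29378 CPM in dexamethasone. This was a fall by 2.70 on the log2 scale (SE 0.162, edgeR adjusted p = 7.99e-07), or 6.49-fold lower. mt-Co2 was at 13.7 and 7.26 CPM with vesicles (log2 fold change −2.13, SE 0.353, edgeR adjusted p = 0.000644). mt-Co3 was at 8.73 and 6.95 CPM (log2 fold change −1.62, SE 0.307, edgeR adjusted p = 0.00151). The libraries of the 2 groups lay apart in all 3 oxidase genes. mt-Atp6 fell further, to 1.57 and 2.70 CPM from 36.2 and 38.5 CPM, on 20 and 35 counts (log2 fold change −4.13, SE 0.341, edgeR adjusted p = 6.12e-06).

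Of the pseudogenes, Gm28439 fell most. It was at 4.01 and 5.87 CPM with vesicles, against 301 and 280 CPM without, on 51 and 76 counts against 2040 and 1897. Its log2 fold change was −5.89 (SE 0.204, edgeR adjusted p = 2.93e-08), a 59.3-fold difference, and only 46 of the 13556 genes tested had a lower one. For mt-Nd4, the counterpart of Gm28439 and a subunit of complex I, the log2 fold change was −3.94 (SE 0.185, edgeR adjusted p = 1.46e-07). Gm29216 was at 57.0 and 110 CPM with vesicles (log2 fold change −3.93, SE 0.304, edgeR adjusted p = 8.51e-05), whereas mt-Co1 changed by −2.70. In both partly copied pairs the pseudogene thus had the more negative log2 fold change, and this difference between the genes of a pair was not tested.

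Gm10925 was at 22.3 and 38.0 CPM with vesicles (log2 fold change −3.87, SE 0.229, edgeR adjusted p = 7.99e-07), beside −4.13 for mt-Atp6. Gm10222 was at 14.9 and 19.7 CPM (log2 fold change −2.52, SE 0.203, edgeR adjusted p = 5.46e-06), beside −3.29 for mt-Nd4l. Gm28661 was at 61.5 and 71.2 CPM (log2 fold change −1.71, SE 0.185, edgeR adjusted p = 3.66e-05), beside −2.13 for mt-Co2. In these wholly copied pairs the mitochondrial gene had the more negative value, by less than the sum of both standard errors for mt-Atp6 and mt-Co2, and these differences were not tested. Gm28437 was at 72.8 and 115 CPM with vesicles and at 113 and 89.4 CPM without, so that its groups overlapped (log2 fold change −0.12, SE 0.213, edgeR adjusted p = 0.686). Its raw counts with vesicles, 926 and 1491, were the highest of the members after those of mt-Co1. Relative to mt-Co1, the count of Gm28437 was 2.01% and 2.22% with vesicles, 0.415% and 0.304% in dexamethasone, and 0.551% and 0.306% in control.

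Because reads from the identical stretches may be counted on either gene of a pair, the counts of each pair were also summed into 1 row before the fit, an alternative chosen after seeing the data. Reads that the authors' counting may have left out of both rows are not in the sum. The summed pairs of mt-Atp6, mt-Nd4, mt-Co1, mt-Nd4l and mt-Co2 had log2 fold changes of −3.89, −4.02, −2.74, −2.59 and −1.77 with vesicles against dexamethasone, each with an edgeR adjusted p of 2.82e-05 or less. The pair of Gm28437 and mt-Co3 had a log2 fold change of −0.31 (SE 0.192, edgeR adjusted p = 0.222), so that the call of mt-Co3 was lost. Against control its value was −0.72 (SE 0.252, edgeR adjusted p = 0.0541). This was the only one of the 6 summed pairs that did not pass the test in either comparison with the vesicle group. In dexamethasone against control the pair of Gm10925 and mt-Atp6 was called (log2 fold change −1.16, edgeR adjusted p = 0.0369) and the other 5 were not.

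**Figure D4:**
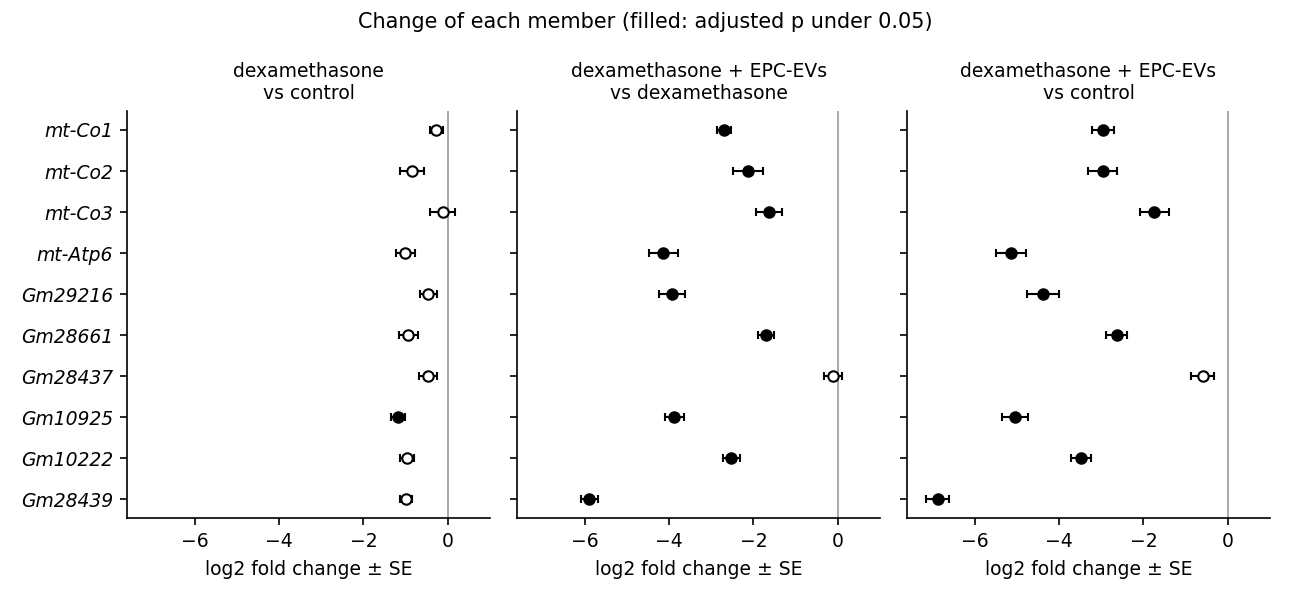
Log2 fold change with its standard error (edgeR) for each member in the 3 comparisons; filled points had an adjusted p under 0.05. Against dexamethasone and against control 9 of 10 members are filled in the vesicle group, with Gm28439 furthest left and Gm28437 nearest 0, while in dexamethasone against control only Gm10925 is filled.

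Dexamethasone + EPC-EVs against control shares the vesicle libraries with the comparison above, and its values stand beside those without any test of likeness. Of the 10 members, 9 fell, against 17.2% of all 13511 genes called lower and 36.4% called in either direction. All 10 had both vesicle libraries below both control libraries, which was so for 34.8% of all genes, and the median log2 fold change was −3.23 over the members and 0.021 over all genes. The limits from shared sequence and from the choice by counts hold here as well. The log2 fold changes were −6.88 for Gm28439 (SE 0.273), −5.13 for mt-Atp6 (SE 0.352), −5.04 for Gm10925 (SE 0.308) and −4.38 for Gm29216 (SE 0.378). They were −3.48 for Gm10222, −2.97 for mt-Co2, −2.96 for mt-Co1, −2.64 for Gm28661 and −1.74 for mt-Co3, and the edgeR adjusted p of these 9 members was at most 0.00595. Gm28437 had −0.59 (SE 0.269, edgeR adjusted p = 0.120), and it was called here and against dexamethasone when the second vesicle library was left out (log2 fold changes −0.95 and −0.48, edgeR adjusted p = 0.0298 and 0.0488).

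The other mitochondrial mRNAs gave the setting of these values. In dexamethasone against control 2 of the 7 tested fell, mt-Nd2 (log2 fold change −1.13) and mt-Cytb (−1.18), both components of the respiratory chain before complex IV, and none rose, where 0.0388% of all genes were called lower. This count depended on the processing, with 6 called by DESeq2 and with no filter and 5 with the replicate block. It was 0 with all 6 libraries in one fit and by limma on FPKM. It was also higher without either control library and lower without either dexamethasone library. DESeq2, no filter, the replicate block and the fits without a control library called more of all genes as well. In dexamethasone + EPC-EVs against dexamethasone 6 of 7 fell, where 18.9% of all genes were called lower, from −3.29 for mt-Nd4l to −6.01 for mt-Nd2. The exception, mt-Cytb, had a log2 fold change of −2.74 with an edgeR adjusted p of 0.134, and its vesicle libraries differed widely, at 229 and 848 CPM. Against control all 8 tested fell in the vesicle group, where 17.2% of all genes were called lower. The added gene, mt-Atp8, had 7 and 8 counts in control and 0 in both vesicle libraries. It did not pass the filter in the other 2 comparisons, so it was tested only here. The medians were −0.80, −4.15 and −5.09 over the 7, 7 and 8 genes tested in the 3 comparisons, so the last includes mt-Atp8. In both comparisons with the vesicle group the 3 oxidase genes had less negative values than each of these genes. Against dexamethasone, however, mt-Co1 (−2.70, SE 0.162) and mt-Cytb (−2.74, SE 0.886) lay closer together than either standard error. These differences were not tested.

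Of the nuclear genes of the same complexes, some rose and some fell in the vesicle group. In dexamethasone against control none of the 11 nuclear oxidase subunits, 22 assembly factors of the oxidase and 18 ATP synthase genes tested was called by edgeR or DESeq2, where edgeR called 0.0544% of all genes. An unadjusted p under 0.05 was found for 3, 1 and 4 of them and for 10.9% of all genes. With no filter edgeR called 1 oxidase subunit, and without the first control library it called genes of each list. In both of these fits more genes of the whole table were called as well. In dexamethasone + EPC-EVs against dexamethasone 5 of 12 oxidase subunits rose and 1 fell, where 39.8% of all genes were called and 18.9% were called lower, and the median of the list was 0.57 on the log2 scale. Cox8a, a small subunit, rose most, from 50.03 ± 5.21 to 362 ± 23.1 CPM (SD, n = 2), by 2.84 on the log2 scale (edgeR adjusted p = 2.49e-07). Cox6c fell from 167 ± 10.4 to 119 ± 4.53 CPM (SD, n = 2; log2 fold change −0.51, edgeR adjusted p = 0.0110). Against control, where 36.4% of all genes were called, 7 of 11 rose and none fell, and the log2 fold change of Cox8a was 3.91. Of 23 assembly factors 21 were not called against dexamethasone. Cox14, which takes part in the making of COX1, rose (log2 fold change 1.84), and Cox20, which assists the maturation of COX2, fell from 43.6 ± 2.39 to 2.37 ± 0.687 CPM (SD, n = 2; log2 fold change −4.21, edgeR adjusted p = 2.93e-06). Against control 3 assembly factors rose and 1 fell.

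Of the 18 nuclear ATP synthase genes, 10 rose and 6 fell in the vesicle group against dexamethasone, where 39.8% of all genes were called and 18.9% were called lower, and the median of the list was 0.83 on the log2 scale. Atp5d, a subunit of the catalytic part, rose most (log2 fold change 1.83), and Atpif1, which inhibits the enzyme when it runs in reverse, fell most (−2.07). The other 5 that fell were Usmg5, Atp5j2, Atp5f1, Atp5j and Atp5h, named after their values were seen, at −0.55 to −1.87. Against control, where 36.4% of all genes were called and 17.2% were called lower, 10 rose and 6 fell as well, led by Atp5g2 (2.81), a subunit of the ring that turns against the product of mt-Atp6. Of the genes for the transcription and RNA upkeep of mitochondrial DNA, 29 were tested against dexamethasone, of which 7 rose, 3 fell and 19 were not called, a share near that over all genes. Among those called with a mean of at least 10 CPM, Fastk rose most (log2 fold change 1.76) and Trmt10c, a subunit of the mitochondrial RNase P, fell most (−1.58, edgeR adjusted p = 0.00552). Tefm, an elongation factor of mitochondrial transcription with a lower mean, had the larger rise (2.43, edgeR adjusted p = 0.0293). Of 7 regulators of mitochondrial biogenesis 3 rose and 2 fell, with the largest rise in Esrra (1.47) and the largest fall in Gabpb1 (−1.24). The part of these genes in the levels of the mitochondrial transcripts was not tested.

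The transcript table gave another reading of the locus. It lists 11 transcripts over the span of the pseudogenes, 7 annotated and 4 assembled from the reads, in FPKM and without counts. Gm28437, with 1 transcript in this table, was at 1342 and 850 FPKM in control there and at 205 and 145 in the gene table. The levels of Gm29216 in control were 8845 and 11623 FPKM against 2639 and 4177, so these 2 genes stood higher in the transcript table. In control the same held, summed over transcripts, for Gm28661 (3243 and 3677 FPKM against 480 and 689) and Gm10925 (6483 and 5866 against 1268 and 1562). It held there for Gm10222 too (4569 and 3434 FPKM against 625 and 648). Gm28439 in dexamethasone stood lower there, at 41.7 and 34.6 FPKM summed over its transcripts against 354 and 329. Assembled transcripts named for Gm10222 and Gm10925 reach down to bases 24558230 and 24559941, outside the annotated genes, and one named for Gm28439 lies on the plus strand.

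Some values in the transcript table differed widely between libraries of a group. The annotated transcript of Gm10925 was at 5751 and 1.74 FPKM in the 2 control libraries, where the gene table had 1268 and 1562, and in the second an assembled transcript of the gene was at 3272. The annotated transcript of Gm28439 was at 2095 and 0.319 FPKM in control, where the gene table had 611 and 677. Gm10222 summed to 191 and 0.401 FPKM over its transcripts in the vesicle group, against 49.97 and 65.8 in the gene table. For Gm28661 the replicates lay closer, at 3243 and 3677 FPKM in control, 2877 and 1893 in dexamethasone, and 623 and 690 with vesicles.

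In a limma fit of log2(FPKM + 1) over all transcripts of the table, none of the 9 transcripts of the locus that passed the filter was called in dexamethasone against control (0 had an unadjusted p under 0.05, against 10.1% of all transcripts), with 0.0582% of all transcripts called. Against dexamethasone 1 of 8 was called in the vesicle group, and it was the only call among the 4453 transcripts tested (0.0225%). Of the 8, 6 had an unadjusted p under 0.05, against 31.0% of all transcripts. The transcript called was an assembled one of Gm10925, at 0.978 and 1.88 FPKM with vesicles and 499 and 374 without (log2 fold change −7.50, limma adjusted p = 0.0309). Summed over its transcripts, Gm10925 was at 160 and 347 FPKM with vesicles and 4592 and 3845 in dexamethasone. The annotated transcripts of Gm29216, Gm28661 and Gm28437 had log2 fold changes of −3.82, −1.83 and −0.71 in that comparison, with limma adjusted p of 0.0819, 0.0819 and 0.238. Against control none of 10 was called (5 had an unadjusted p under 0.05, against 34.4% of all transcripts), beside 0.115% of all transcripts called.

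**Figure D5:**
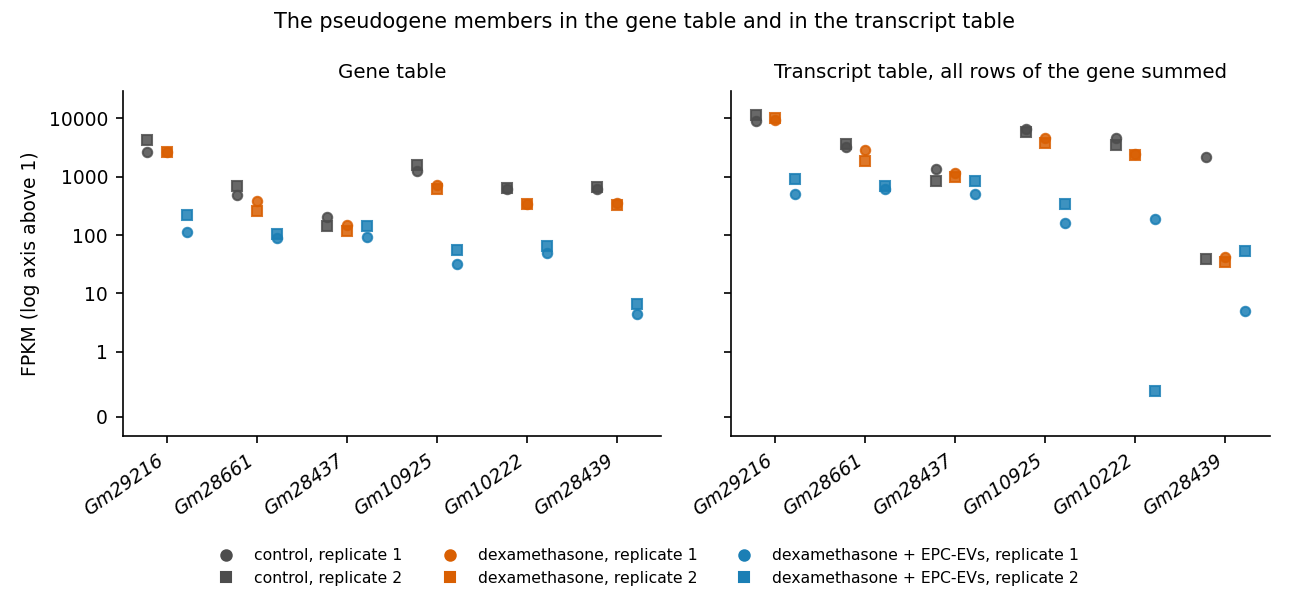
Levels (FPKM, logarithmic above 1) of the 6 pseudogenes in the gene table (left) and as the sum of their transcripts in the transcript table (right), one point per library. On the right the replicates of Gm28439 lie far apart in control, at 2138 and 39.4 FPKM, and those of Gm10222 in the vesicle group, at 191 and 0.401 FPKM.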

How the data were processed

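RNA of 6 libraries of MC3T3-E1 Subclone 14 cells was measured by RNA-seq. The authors aligned the reads with HISAT2 under its reverse-forward strand option and counted them on genes with HTSeq (version 0.6.1 in the submitters' processing notes, which also name GRCm38 and DESeq2 1.26.0), and the deposited counts are not normalized. The deposited gene FPKM are these counts per gene length and library total. Transcript FPKM were estimated by the authors using StringTie. The transcript table used here covers chromosome 1, and its last row, which stops mid-value, was left out. The strand and multiple-match settings of HTSeq are not given in the sources used here. No values of other samples were found in the tables.

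Counts were fitted with edgeR 4.0.16 (R 4.3.3): TMM, filterByExpr, robust quasi-likelihood, on the 4 libraries compared, with Benjamini-Hochberg adjustment over all genes tested and calls at an adjusted p under 0.05. CPM in the text use TMM over the 6 libraries. Transcripts with an FPKM of at least 1 in 2 libraries were fitted with limma 3.58.1 on log2(FPKM + 1). Both tests were also run on simulated data. For transcripts the planted changes lay only in those with a spread up to the median, so transcripts with a wider spread were not covered. Pseudogene and mitochondrial transcripts of GENCODE vM21 were aligned locally with Biopython 1.88. Shares of counts have exact (Clopper-Pearson) 95% intervals. The depth is given with the values, and libraries of 1 group differed beyond sampling noise (chi-square per degree of freedom 16.8, 7.19 and 21.8 in control, dexamethasone and dexamethasone + EPC-EVs).

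The members and gene lists were chosen with earlier results of these data known. The genes named are the members, the other mitochondrial genes, the genes of the locus, in each list the called genes with the largest rise and fall and a mean of at least 10 CPM, and markers. Also named are the 5 genes most like mt-Co1 or the summed pseudogenes in log2 CPM. These were sought at a mean of at least 10 CPM and outside the mitochondrial genes and the locus. Alternatives were DESeq2 1.42.0, library totals, upper-quartile scaling, scaling without mitochondrial genes and pseudogenes, no filter, all 6 libraries in one fit, a replicate block, limma on gene FPKM, each library left out, other transcript settings, and, chosen after seeing the data, summed pairs.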

Additional observations from a re-analysis of the deposited data

How the results depend on the processing

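In dexamethasone against control the number of members called depended on the processing. In place of 1 member and 7 genes, DESeq2 called 5 members and 130 genes, no filter 6 and 248, and the replicate block 3 and 43. All 6 libraries in one fit called 0 members and 9 genes, limma on log2(FPKM + 1) called 0 members and 0 genes, and summed pairs called 2 members, Gm10925 and mt-Atp6, which are then 1 row. With 1 library left out, 0 to 8 members and 9 to 2200 genes were called, and the lone library of a group is then assumed to vary like the others. The cause was not tested. All members kept a negative log2 fold change except mt-Co3, which ranged from −0.24 to 0.0247 with 1 library left out and turned without the first control library.

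In dexamethasone + EPC-EVs against dexamethasone, 8 to 10 members were called under every alternative, and leaving out a library moved the genes called to between 3250 and 4813, the lowest without the second dexamethasone library. Gm28437 ranged from −0.48 to 0.19 with 1 library left out, at 0.07 without the first dexamethasone and 0.19 without the first vesicle library. The call of mt-Co3 was lost with summed pairs. Against control 8 to 10 members were called as well, and the block changed no member's call in either comparison. Of 130 values of members and alternatives in each of these 2 comparisons, 126 and 128 kept their direction and call. With a pseudocount of 0.1, 4 transcripts of the locus were called in each of these comparisons, and all transcripts called went from 1 to 349 (7.84%) and from 5 to 503 (11.6%). With FPKM in place of counts the shares of the 4 pseudogenes of wholly copied genes moved by less than their SD. That of Gm28439 moved to 11.98%, 10.6% and 2.96% in control, dexamethasone and dexamethasone + EPC-EVs, and that of Gm29216 to 13.5%, 12.2% and 5.46%, since their counterparts are longer.

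Same-numbered libraries share only a number: their deviations from the group means correlated by 0.0619, 0.0114 and 0.00732. The low depth of mt-Atp6 (20 and 35 counts with vesicles) and 2 libraries a group limit the precision.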

Other observations

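The genes with the most similar course to mt-Co1 over the 6 libraries, by Pearson's r of log2 CPM among 9206 genes, were Zfp958, Zfp40, Naa50, Gm10033 and Eed, each with r of 0.999. Those most like the sum of the 6 pseudogenes were Sept7, Stam, Osmr, Gpbp1 and Lmbr1, with r between 0.9984 and 0.9996. Osmr, the receptor subunit for oncostatin M, was at 649 and 764 CPM in control, 489 and 461 CPM in dexamethasone, and 87.7 and 115 CPM in dexamethasone + EPC-EVs. Eed, a subunit of a histone methyltransferase complex, was at 46.4 and 55.4, 42.1 and 44.6, and 13.5 and 16.1 CPM. With 6 libraries in 3 groups such values describe a shared difference between the groups, and no test was made.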
